A study of Mus musculus with 6 samples.

Results

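The enzymes that make serine and that pass its carbon on to folate were followed through 6 RNA-Seq libraries of mouse CD4+ T cells. The group was chosen by gene symbol and holds 8 of the 24223 genes counted: *Phgdh*, *Psat1*, *Psph*, *Shmt1*, *Shmt2*, *Mthfd1*, *Mthfd1l* and *Mthfd2*. All 8 passed the filter on low counts, with 144 to 14311 counts in a library. The libraries were 2 each of Naive, Th17 and Th1 cells, made from C57BL/6 mice aged between 1 and 2 months. Naive cells were isolated as CD4+CD44- from pooled lymph nodes and spleens and were not activated. Th17 and Th1 cells were grown from such cells for 5 days with anti-CD3 and anti-CD28. The Th1 cultures also had anti-IL-4, IL-12 and IL-2, and the Th17 cultures anti-IL-4, anti-IFN-γ, TGF-β, IL-6, IL-1β and IL-23. Both media held glutamine, pyruvate and serum. Each culture is a mixture, since not every cell in it made the cytokine that defines its type. The isolated Naive cells were not wholly pure by the study's flow cytometry either. No gene was deleted or added in any group.

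Serine is made from the glycolytic intermediate 3-phosphoglycerate in the order *Phgdh*, *Psat1*, *Psph*, which encode a dehydrogenase, an aminotransferase and a phosphatase. SHMT1 in the cytosol and SHMT2 in mitochondria then split serine to glycine and load its carbon onto tetrahydrofolate. Inside mitochondria MTHFD2 oxidizes that carbon and MTHFD1L releases it as formate, and MTHFD1 takes up formate in the cytosol, where purine and thymidylate synthesis use it. T cells raise this pathway when they are activated and divide, and MTHFD2 is low in most resting adult tissues.

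Libraries held between 17742158 and 69080017 counts, and replicate 1 was the deeper one in every cell type. Expression is given as CPM, the depth-scaled count of a gene relative to the TMM-adjusted total of its library, and differences as log2 fold changes. A gene was called when its adjusted p-value was under 0.01 and its absolute log2 fold change above 1. The Th17 marker list (*Il17a*, *Il17f*, *Il23r*, *Il22*, *Ccr6*) summed to 1971 and 2463 CPM in Th17 and to between 0.506 and 5.001 CPM elsewhere. The Th1 list (*Tbx21*, *Ifng*, *Il12rb2*, *Cxcr3*) summed to 775 and 763 CPM in Th1 and to between 67.6 and 93.9 CPM elsewhere. A list of naive T cell markers (*Ccr7*, *Lef1*, *Tcf7*, *Il7r*) did not set the Naive libraries apart, with 2188 and 3470 CPM in Naive, 2734 and 2340 CPM in Th17 and 1732 and 2829 CPM in Th1.

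None of the 8 enzymes was called in any of the 3 comparisons by edgeR. Over all 13607 genes tested, 5.43% were called in Th17 relative to Naive, 7.45% in Th1 relative to Naive and 5.53% in Th1 relative to Th17. At an unadjusted p-value under 0.05, the enzymes counted 3 in Th17 relative to Naive (*Psph*, *Mthfd1*, *Mthfd1l*), 2 in Th1 relative to Naive (*Mthfd1*, *Mthfd2*) and 2 in Th1 relative to Th17 (*Psph*, *Mthfd2*). The shares of all genes at that level were 33.3%, 29.9% and 33.8%. DESeq2 called 1 enzyme, *Mthfd1*, in Th17 relative to Naive, and 0 in the other 2 comparisons. Of all 13607 genes it called 1717, 1917 and 1797 in the 3 comparisons. The median log2 fold change of the 8 enzymes was -0.31, -0.15 and 0.31 in the 3 comparisons in that order, beside -0.02, -0.02 and -0.03 for all genes tested.

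**Figure D1:**
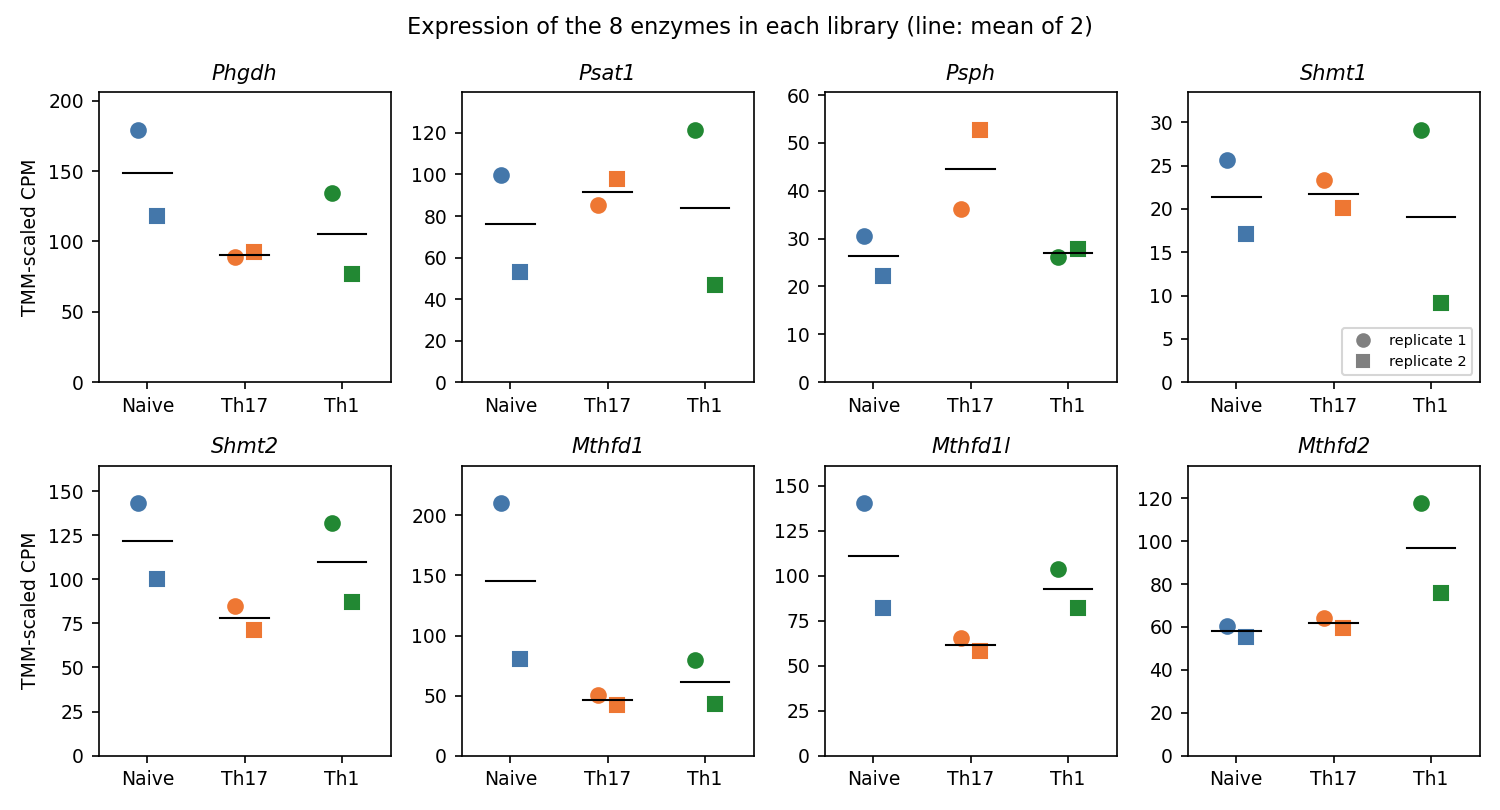
Expression of each enzyme in the 6 libraries, in TMM-scaled CPM on a linear axis that starts at 0 (circles: replicate 1; squares: replicate 2; line: mean of both). *Mthfd1* was highest in the Naive libraries, at 210 and 80.6 CPM, *Psph* in Th17, at 36.2 and 52.7 CPM, and the replicates of Naive and Th1 often lay further apart than those of Th17.

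Per kilobase of merged exons, *Phgdh* had the highest level of the 8 enzymes in 6 of 6 libraries, with a mean over the libraries of 46.3 CPM per kb. *Shmt2* followed with 33.1 CPM per kb and was second in 4 of 6 libraries. *Mthfd2* (20.7 CPM per kb), *Mthfd1l* (19.97), *Psat1* (19.7) and *Mthfd1* (19.0) lay close together, and their order changed from library to library. *Psph* and *Shmt1* were lowest, with 7.54 and 5.35 CPM per kb, and *Shmt1* was last in 5 of 6 libraries.

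*Phgdh*, the first enzyme of serine synthesis, lies on chromosome 3 of GRCm38 from 98313170 to 98339990. It had 179 and 118 CPM in Naive, 88.9 and 92.4 CPM in Th17 and 134 and 76.6 CPM in Th1. Both Naive libraries were above both Th17 libraries, and the Th1 libraries spanned the Th17 values. The log2 fold change in Th17 relative to Naive was -0.72 (SE 0.33, edgeR adjusted p = 0.159). For Th1 it was -0.50 (SE 0.33, edgeR adjusted p = 0.360). Between Th1 and Th17 the 95% interval of the log2 fold change ran from -0.51 to 0.95, so a difference of 2-fold in either direction lay outside it.

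*Psat1*, which adds the amino group, lies on chromosome 19 from 15904678 to 15947337. Its values were 99.7 and 52.8 CPM in Naive, 85.1 and 97.8 CPM in Th17 and 121 and 46.6 CPM in Th1. The groups overlapped in all 3 comparisons, and the 2 Th1 libraries held both the highest and the lowest value. Its log2 fold changes relative to Naive were 0.26 in Th17 (SE 0.44) and 0.14 in Th1 (SE 0.44).

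*Psph*, which releases serine, lies on chromosome 5 from 129765558 to 129787449. It had 30.6 and 22.2 CPM for Naive, 36.2 and 52.7 CPM in Th17 and 26.2 and 27.9 CPM in Th1. Both Th17 libraries lay above the other 4. The log2 fold change was 0.75 in Th17 relative to Naive (SE 0.31, edgeR adjusted p = 0.121) and -0.72 in Th1 relative to Th17 (SE 0.31, edgeR adjusted p = 0.134). The 95% interval of Th1 relative to Naive was -0.65 to 0.72. Of the exon bases of *Psph*, 10.4% are shared with a transcript of *Cct6a* on the opposite strand, and the strand setting of the counting is described in more than one way, so its counts are less certain than those of the other enzymes.

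The fitted differences of the 3 serine synthesis genes between Naive and Th17 thus had both signs, and none was called. Within a library, where depth and scaling cancel, *Psph* had 0.171 and 0.187 counts for each count of *Phgdh* in Naive. It was 0.408 and 0.570 in the Th17 libraries, while the Th1 libraries had 0.195 and 0.364. Both Naive libraries were lowest and both Th17 libraries highest. The ratio of *Psat1* to *Phgdh* was lowest in Naive, at 0.556 and 0.446, against 0.957 and 1.06 in Th17, and 0.904 and 0.609 for Th1. Both ratios are taken over *Phgdh*, so they are not separate observations. No model was fitted to these ratios, and the smallest p-value that an exact two-sided permutation of 2 against 2 libraries allows is 0.333.

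*Shmt1*, the cytosolic hydroxymethyltransferase, lies on chromosome 11 from 60788104 to 60811718, and shares 4.74% of its exon bases with *Smcr8* on the opposite strand. It was the enzyme with the fewest counts, with 25.6 and 17.1 CPM in Naive, 23.4 and 20.1 CPM in Th17 and 29.1 and 9.10 CPM in Th1. The Th1 libraries held the extremes, and all groups overlapped. The log2 fold changes were 0.02 in Th17 (SE 0.48) and -0.15 in Th1 (SE 0.48) relative to Naive.

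*Shmt2*, the mitochondrial form, lies on chromosome 10 from 127517123 to 127522444. Its values were 143 and 99.9 CPM in Naive, 84.9 and 71.4 CPM in Th17 and 132 and 86.9 CPM in Th1. Both Th17 libraries were below the other 4. The log2 fold change was -0.64 in Th17 relative to Naive (SE 0.30, edgeR adjusted p = 0.171) and 0.49 in Th1 relative to Th17 (SE 0.30, edgeR adjusted p = 0.280). For Th1 relative to Naive the 95% interval was -0.82 to 0.52. *Shmt2* exceeded *Shmt1* in every library, by 5.58 and 5.83 counts to 1 in Naive, 3.63 and 3.54 to 1 in Th17 cells and 4.53 and 9.55 to 1 in Th1. The Th17 ratios were the lowest of the 6 and the Th1 libraries lay on either side of Naive. Without Th1 replicate 2, which had 144 counts of *Shmt1*, the mean log2 ratio in Th1 was 0.33 below that in Naive in place of 0.21 above it.

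*Mthfd1*, the trifunctional cytosolic enzyme, had the largest fitted difference of the 8 in both comparisons with Naive, though not between Th1 and Th17. It lies on chromosome 12 from 76255298 to 76319803. It had 210 and 80.6 CPM in Naive, 50.3 and 42.1 CPM in Th17 and 79.3 and 42.8 CPM in Th1. Both Naive libraries were above the other 4, though Naive replicate 2 was only just above Th1 replicate 1, and the Naive libraries differed more from each other than the Th17 or Th1 pair did. The log2 fold change in Th17 relative to Naive was -1.65 (SE 0.45, 95% interval -2.65 to -0.65, edgeR adjusted p = 0.0351), which was not called. DESeq2 gave -1.63 with an adjusted p of 0.00561 and called it. That in Th1 was -1.25 (SE 0.44, edgeR adjusted p = 0.0861). Without Naive replicate 1 the values were -0.80 (edgeR adjusted p = 0.182) and -0.40 (edgeR adjusted p = 0.571), and without Naive replicate 2 that in Th17 was -2.19 and was called (edgeR adjusted p = 0.00444). In such fits 1 library stands for its cell type and is assumed to vary like the others, so that a lost call does not show that the difference is absent. In Naive replicate 1 a list of 11 erythroid genes summed to 1226 CPM, against 186 CPM in Naive replicate 2 and between 3.50 and 13.1 CPM in the Th libraries, with the 4 globin genes of that list at 0 counts in every library. A list of 18 proliferation genes summed to 2901 CPM in Naive replicate 1 and to 1385 CPM in the other Naive library. The part of either in the *Mthfd1* values was not tested, and in such libraries fewer cells of a type and less RNA per cell cannot be told apart.

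*Mthfd1l*, the mitochondrial formate-releasing ligase, lies on chromosome 10 from 3973118 to 4167081. Its values were 140 and 82.1 CPM in Naive, 65.2 and 58.3 CPM in Th17 and 103 and 82.1 CPM in Th1. Both Th17 libraries were below the other 4. The log2 fold change was -0.85 in Th17 relative to Naive (SE 0.31, edgeR adjusted p = 0.0848) and 0.59 in Th1 relative to Th17 (SE 0.30, edgeR adjusted p = 0.201). Between Th1 and Naive the 95% interval was -0.94 to 0.42.

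*Mthfd2*, the mitochondrial dehydrogenase and cyclohydrolase, lies on chromosome 6 from 83305691 to 83325908. It had 60.5 and 55.5 CPM in Naive, 64.4 and 59.7 CPM in Th17 and 118 and 76.0 CPM in Th1. Both Th1 libraries were above the other 4, while Naive and Th17 overlapped within a narrow range. The log2 fold change was 0.74 in Th1 relative to Naive (SE 0.28, edgeR adjusted p = 0.104) and 0.64 in Th1 relative to Th17 (SE 0.28, edgeR adjusted p = 0.137). In Th17 relative to Naive it was 0.10, with a 95% interval of -0.52 to 0.72.

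**Figure D2:**
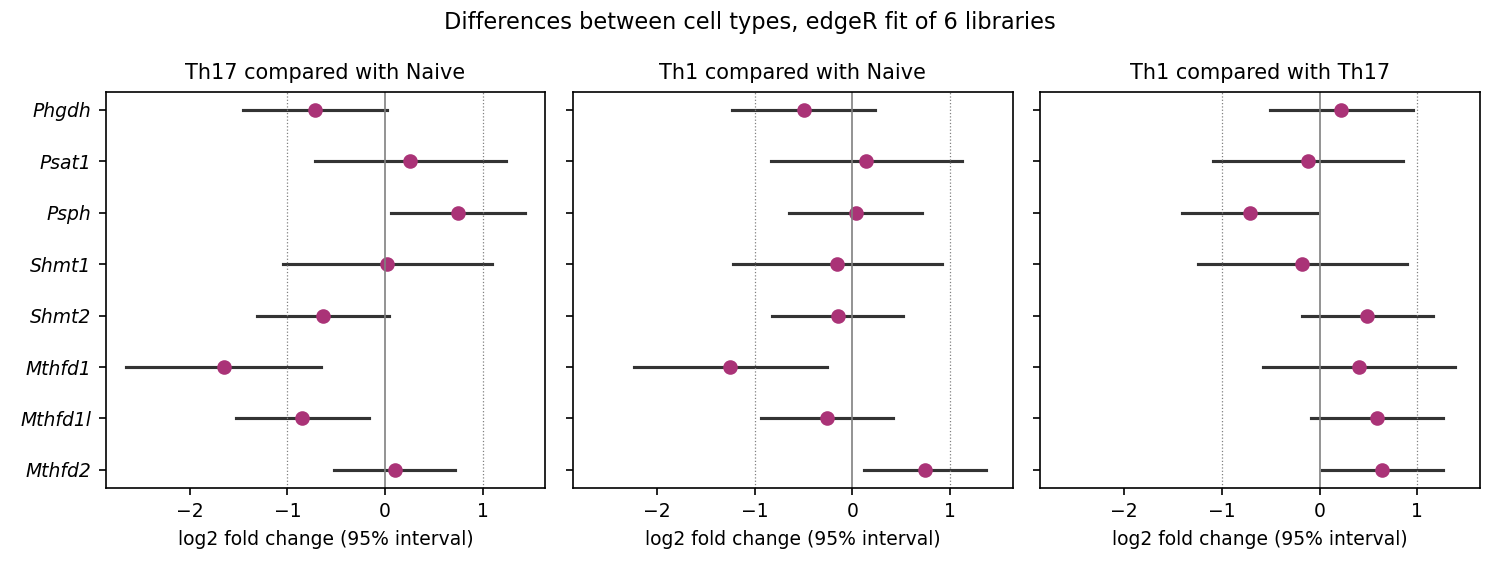
Log2 fold change of each enzyme in the 3 comparisons, with the 95% interval from edgeR's fit of 6 libraries (dotted lines: 2-fold). *Mthfd1* in Th17 relative to Naive lay furthest from 0, at -1.65, and the interval lay inside 2-fold for 1, 3 and 1 of the 8 enzymes in the 3 comparisons from left to right.

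*Mthfd1* and *Mthfd2* thus had fitted differences of opposite sign in Th1 relative to Naive, neither of them called, and their ratio set the Naive libraries apart from all others. For each count of *Mthfd1* there were 0.288 and 0.688 counts of *Mthfd2* in Naive, but 1.28 and 1.42 in Th17 cells and 1.48 and 1.78 in Th1 cells. The mean log2 ratio was higher by 1.60 in Th17 and by 1.87 in Th1 than in Naive, and without Naive replicate 1 by 0.97 and 1.24. *Mthfd1l* had 0.667 and 1.02 counts for each count of *Mthfd1* in Naive, but 1.29 and 1.39 in Th17 cells and 1.30 and 1.92 in Th1 cells, with both Naive libraries lowest. Both ratios are taken over *Mthfd1*, itself highest in the Naive libraries, so they are not separate observations.

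**Figure D3:**
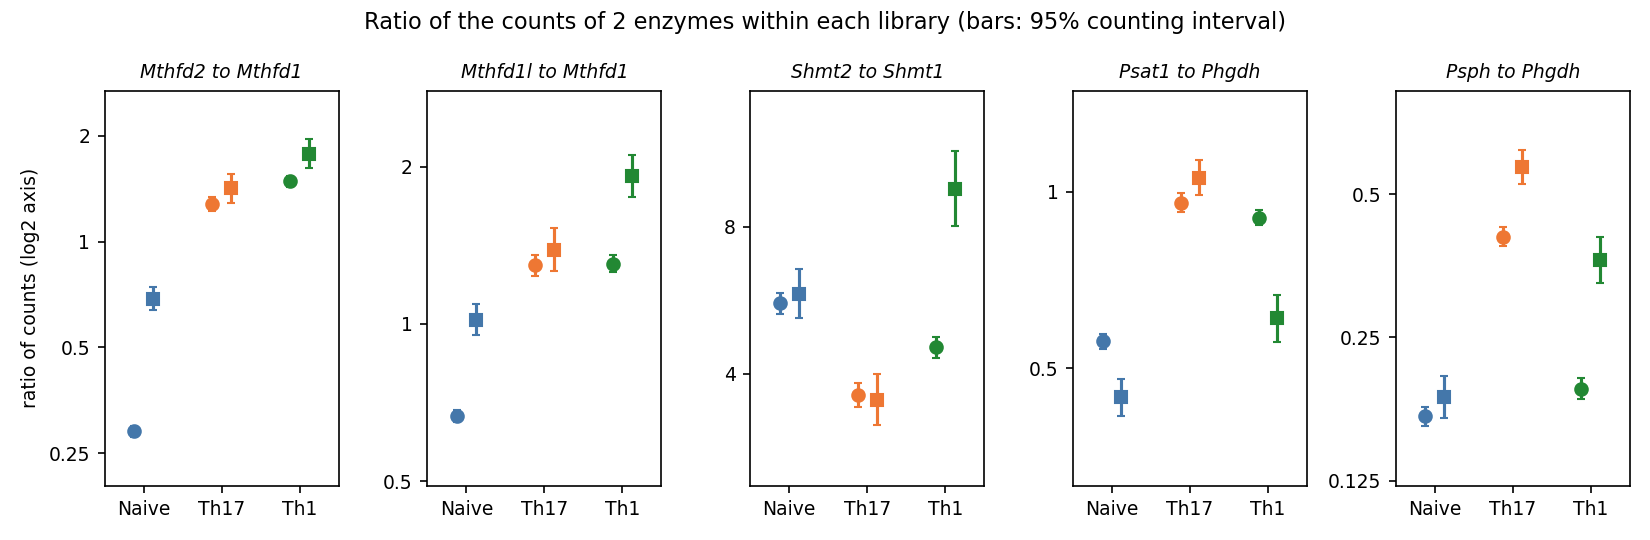
Ratio of the counts of 2 enzymes within each library, on a log2 axis (circles: replicate 1; squares: replicate 2; bars: exact 95% interval, counting error only). In the panels of *Mthfd2* to *Mthfd1* and *Mthfd1l* to *Mthfd1* both Naive libraries lay below the other 4, and in that of *Shmt2* to *Shmt1* both Th17 libraries lay lowest.

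In Th17 relative to Naive, the libraries of the groups did not overlap for 5 of the 8 enzymes (*Phgdh*, *Shmt2*, *Mthfd1* and *Mthfd1l* lower, *Psph* higher), against 65.5% of all genes tested. In Th1 relative to Naive this held for 2 (*Mthfd1* lower, *Mthfd2* higher), against 56.0% of all genes. In Th1 relative to Th17 it held for 4 (*Psph* lower, *Shmt2*, *Mthfd1l* and *Mthfd2* higher), against 66.6%. In no comparison was the share of the enzymes above that of all genes, and 8 genes are too few to tell these shares apart.

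The promoters of *Mthfd1* and *Mthfd2* are shown because the ratio of these genes separated Naive from both Th cell types, and those of *Shmt2* and *Mthfd1l* because the profiles of these genes over the libraries had the smallest distance among the 8. Each line gives the 250 bases before the RefSeq start (GRCm38.p6), 5′ to 3′ in the direction of transcription, with CCAAT or its reverse complement ATTGG in capitals. The windows are chr12:76254982-76255231 (plus strand) for *Mthfd1*, chr6:83317605-83317854 (minus strand) for *Mthfd2*, chr10:127522445-127522694 (minus strand) for *Shmt2* and chr10:3972825-3973074 (plus strand) for *Mthfd1l*. That of *Mthfd1* lies wholly within an exon of the bidirectional-promoter lncRNA *Gm47525*.
Mthfd1: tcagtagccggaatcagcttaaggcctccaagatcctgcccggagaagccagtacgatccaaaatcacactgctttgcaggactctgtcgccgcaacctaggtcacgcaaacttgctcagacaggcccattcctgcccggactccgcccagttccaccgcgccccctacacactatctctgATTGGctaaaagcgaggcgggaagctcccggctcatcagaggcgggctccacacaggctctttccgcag
Mthfd2: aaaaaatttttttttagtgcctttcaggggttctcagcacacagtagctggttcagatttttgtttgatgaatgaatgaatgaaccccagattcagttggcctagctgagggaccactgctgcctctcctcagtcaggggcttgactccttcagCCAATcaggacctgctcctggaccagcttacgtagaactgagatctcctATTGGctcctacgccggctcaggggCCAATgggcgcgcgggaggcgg
Shmt2: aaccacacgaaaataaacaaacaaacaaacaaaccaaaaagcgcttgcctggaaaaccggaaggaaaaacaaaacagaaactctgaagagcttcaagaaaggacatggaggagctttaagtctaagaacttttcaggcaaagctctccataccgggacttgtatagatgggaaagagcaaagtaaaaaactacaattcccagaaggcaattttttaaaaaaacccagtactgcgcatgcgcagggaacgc
Mthfd1l: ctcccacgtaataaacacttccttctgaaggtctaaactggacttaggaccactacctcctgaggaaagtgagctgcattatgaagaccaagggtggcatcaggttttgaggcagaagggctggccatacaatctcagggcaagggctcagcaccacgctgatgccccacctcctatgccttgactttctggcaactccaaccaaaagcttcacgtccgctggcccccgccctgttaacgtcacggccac

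Of the 9 RefSeq promoter windows of the 8 enzymes (*Psat1* has 2), each 300 bases long with the 50 bases after the start included and both strands searched, 6 held CCAAT, which was chosen after the sequences were read. Of all 32851 promoters, 37.4% held it. *Mthfd2* had 3 copies and *Mthfd1* 1, while the windows of *Shmt2* and *Mthfd1l* had none. The letters TGATGNAA, an element that ATF4 and its partners can bind, were in 0 of the 9 windows and in 3.97% of all promoters. The E-box CACGTG, which MYC can bind, was in 0 of the 9 and in 7.15% of all promoters.

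The replicates of Naive and of Th1 differed along most of the group. In Naive, 8 of 8 enzymes were higher in replicate 1, with a median log2 difference of 0.59 and the largest, 1.38, in *Mthfd1*. In Th1, 7 of 8 were higher in replicate 1, with a median of 0.72. *Shmt1*, at 1.67, was the 1 enzyme outside the range of the middle 90% of all genes there. Th17 had 5 of 8 and a median of 0.13. The 18 proliferation genes, which encode replication and mitosis factors such as MCM2 and CDK1, differed in the same direction. All 18 were higher in replicate 1 of Naive (median 1.26) and of Th1 (median 1.72), and 15 of 18 in Th17 (median 0.21). Their sum was 7438 CPM in Th1 replicate 1 against 2258 CPM in Th1 replicate 2, and 2679 and 2399 CPM in Th17. Between cell types, edgeR called 0 of the 18 in each comparison, against 5.43%, 7.45% and 5.53% of all genes tested. Fitted values were lower for 7 of the 18 in Th17 relative to Naive, 1 in Th1 relative to Naive and 0 relative to Th17. Of all genes tested, 50.8%, 51.0% and 51.1% were lower. The median log2 fold changes of the 18 were 0.29, 1.60 and 0.82, against -0.02, -0.02 and -0.03 for all genes. At an unadjusted p under 0.05 there were 2, 11 and 5 of the 18, against 33.3%, 29.9% and 33.8% of all genes. DESeq2 called 0, 6 and 2 of the 18, against 1717, 1917 and 1797 of all 13607 genes. The part of the proliferation genes in the enzymes' values was not tested.

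**Figure D4:**
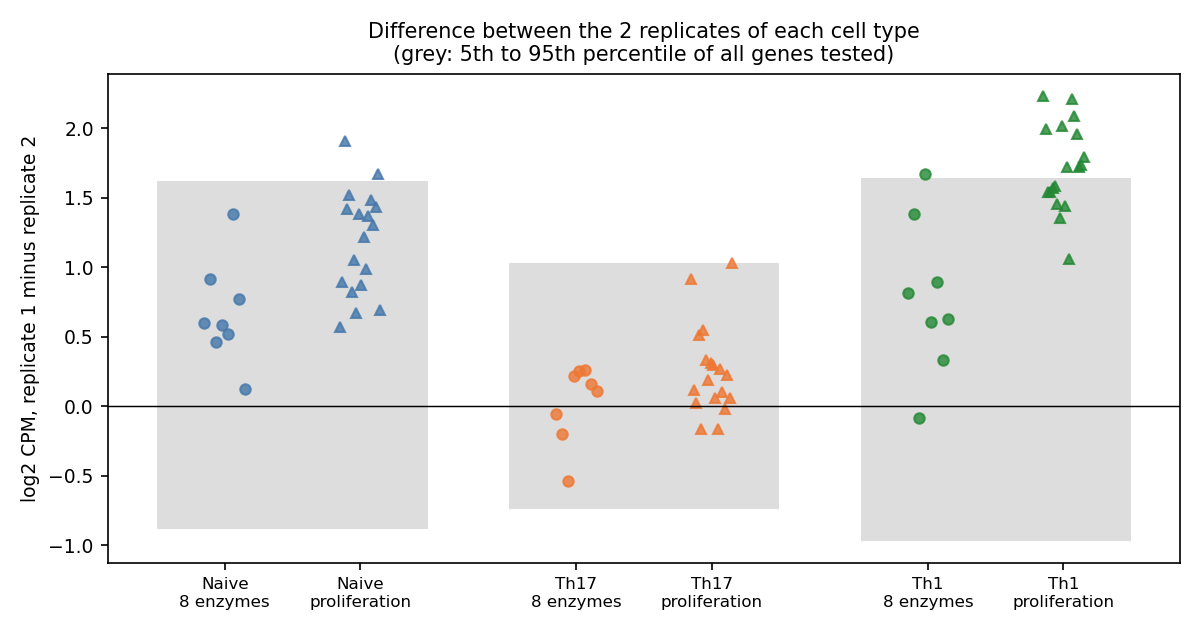
Difference in log2 CPM between replicate 1 and replicate 2 of each cell type for the 8 enzymes (circles) and 18 proliferation genes (triangles), with the middle 90% of all genes tested in grey. The enzymes lay above 0 in Naive and, but for 1, in Th1, with medians of 0.59 and 0.72, and around 0 in Th17.

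Markers of other cells differed between the libraries as well. A list of 9 neutrophil genes summed to 3146 and 3042 CPM in Th17, 372 and 219 CPM in Naive, and as little as 33.2 and 46.3 CPM in Th1. All 9 were above 10 CPM in both Th17 libraries, but they did not all follow the sum. *S100a8*, *S100a9*, *Ngp*, *Ltf*, *Camp* and *Chil3* had at most 1.48 CPM in Naive and at least 87.8 CPM in Th17. *Mpo* went the other way, with 68.1 and 58.7 CPM for Th17 against 251 and 159 CPM for Naive. In Naive replicate 1, *Elane* (57.3 CPM) and *Prtn3* (60.6 CPM) were near their Th17 levels of 46.9 to 52.5 and 60.5 to 64.7 CPM. The macrophage and dendritic cell list, with 6 of its 7 genes in the files, summed to 239 and 815 CPM in Th17 and to between 14.8 and 38.3 CPM elsewhere. *Lyz2* alone had 223 and 762 CPM in Th17, and 1 and 4 of the 6 genes were above 10 CPM there. *Csf1r* had 5.34 and 11.7 CPM in Th17 and 7.41 and 4.80 CPM in Naive. The mast cell and basophil list summed to between 52.0 and 441 CPM, and the megakaryocyte list to between 4.75 and 469 CPM, both highest in Th17 replicate 2. Within the mast cell and basophil list, *Kit* and *Gata2* were highest in Naive replicate 1, at 99.8 and 32.6 CPM. B cell genes and CD8 and NK cell genes summed to at most 19.0 and 27.0 CPM in any library. The part of these cells in the lower *Shmt2*, *Mthfd1l* and *Phgdh* and the higher *Psph* values of Th17 was not tested. Their part in the enzyme values of Naive was not tested either. T cell genes (*Cd4*, *Cd3d*, *Cd3e*, *Cd3g*, *Cd28*, *Lck*) summed to between 2405 and 3757 CPM in all 6 libraries.

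Profiles were compared over the 6 libraries by the Euclidean distance of centred log2 CPM, as a description. Among the enzymes the smallest distance was that of *Shmt2* and *Mthfd1l* (0.326), followed by *Phgdh* and *Shmt2* (0.472), *Phgdh* and *Mthfd1l* (0.582) and *Psat1* and *Shmt1* (0.603). By Pearson's r, which does not weigh the size of the differences, *Phgdh* and *Mthfd1* (0.953) were as alike as *Shmt2* and *Mthfd1l* (0.953), and *Mthfd1* and *Shmt2* had an r of 0.878. *Shmt2* ranked 9th among the 13606 other genes in likeness to *Mthfd1l*, and *Mthfd1l* ranked 25th in likeness to *Shmt2*. *Psph* and *Phgdh* had an r of -0.32. The gene nearest to *Mthfd1* was *Ifrd2* (distance 0.133), that nearest to *Psph* was *Tcea1* (0.0678), that nearest to *Shmt2* was *Larp7* (0.0850), and that nearest to *Psat1* was *Hat1* (0.134), a histone acetyltransferase. *Aifm1* was nearest to *Phgdh*, *1600002H07Rik* to *Shmt1*, *Ap1ar* to *Mthfd1l* and *Sae1* to *Mthfd2*. The 6 libraries share the differences in depth between replicates, and no p-value was computed.

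Around the 8 enzymes, 72 genes of folate uptake, the methionine cycle, glycine cleavage, serine transport and use, purine synthesis and their regulators were listed, of which 63 were tested. Of these, edgeR called 1 higher and 1 lower in Th17 relative to Naive, 3 higher and 2 lower in Th1 relative to Naive, and 3 higher and 0 lower in Th1 relative to Th17. The 0 lower stands beside 1 called lower by DESeq2. Over all genes tested, edgeR called 5.43%, 7.45% and 5.53% in either direction. Of the 63 pathway genes, 14, 24 and 21 had an unadjusted p under 0.05 in either direction, against 33.3%, 29.9% and 33.8% of all genes. Without Naive replicate 1 the calls relative to Naive numbered 1 in Th17 and 2 in Th1, without Th17 replicate 1 they numbered 1 and 3, and without Th17 replicate 2 there was 1 in Th17. The calls between Th1 and Th17 numbered 0 without either Th17 replicate, 1 without Th1 replicate 2 and 5 without Naive replicate 2. The medians of the 63 were -0.11, -0.21 and -0.16.

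*Ahcy*, which hydrolyses S-adenosylhomocysteine in the methionine cycle, had 829 and 1001 CPM in Th1, while Naive had 198 and 91.3 CPM and Th17 147 and 116 CPM. Both Th1 libraries were far above the other 4. It rose by a log2 fold change of 2.66 in Th1 relative to Naive (SE 0.40, edgeR adjusted p = 0.00194), and was higher by 2.80 than in Th17 (SE 0.40, edgeR adjusted p = 0.00199). *Ahcyl2*, a relative of *Ahcy* that acts as a regulator of ion transport, had 171 and 369 CPM in Th1 and between 55.8 and 79.8 CPM in the other 4 libraries. Its log2 fold change in Th1 was 1.99 relative to Naive (edgeR adjusted p = 0.00627) and 2.11 relative to Th17 (edgeR adjusted p = 0.00622). Without Th1 replicate 2 these were 1.34 and 1.46, and neither was called. The call relative to Naive was also lost without Naive replicate 1, Naive replicate 2 or Th17 replicate 1, and that relative to Th17 without either Th17 replicate. Over all 16 settings, *Ahcyl2* was called in 10 relative to Naive and in 12 relative to Th17, so other processing settings also lost the calls. *Mtr*, methionine synthase, which takes the methyl group from folate, had 69.7 and 58.2 CPM in Naive and between 22.9 and 34.4 CPM in the Th libraries. Its log2 fold changes of -1.09 and -1.15 from Naive were called by DESeq2 and not by edgeR (adjusted p = 0.0357 and 0.0260).

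Of the 6 genes tested for folate uptake and retention, 5 in Th17 and 6 in Th1 had lower fitted values than in Naive, against 50.8% and 51.0% of all genes tested, with medians of -0.76 and -1.41. At an unadjusted p under 0.05 there were 4 and 5 of the 6, against 33.3% and 29.9% of all genes, and edgeR called 1. The 6 include *Izumo1r*, the gene called, and *Slc46a1*, which had 10 and 0 counts in Th1. In Th1 relative to Naive, *Fpgs*, *Slc19a1*, *Slc25a32* and *Ggh* had log2 fold changes of -2.11, -0.89, -0.64 and -0.02. In Th17 relative to Naive, *Slc25a32* had -0.06 and *Ggh* 1.14. *Izumo1r*, a folate receptor family member found on regulatory T cells that does not bind folate, had 243 and 266 CPM in Naive, 86.1 and 110 CPM in Th17 and 40.3 and 93.1 CPM in Th1. It fell by 1.94 on the log2 scale in Th1 relative to Naive (SE 0.38, edgeR adjusted p = 0.00771). When single libraries were omitted the value ran from -2.65 to -1.41, weakest without Th1 replicate 1, and the call was lost in 4 of these 6 fits, those without Naive replicate 1, Naive replicate 2, Th17 replicate 1 or Th1 replicate 1. Over all 16 settings *Izumo1r* was called in 11, so the call was also lost under another processing setting. *Fpgs*, which adds the glutamates that keep folate in the cell, had 78.7 and 26.3 CPM in Naive and between 9.36 and 15.9 CPM elsewhere. Its log2 fold changes were -1.90 in Th17 and -2.11 in Th1 relative to Naive (edgeR adjusted p = 0.0285 and 0.0165). *Slc19a1*, the reduced folate carrier, had 65.8 and 34.9 CPM in Naive and between 17.1 and 32.1 CPM elsewhere, with a log2 fold change of -1.34 in Th17 (edgeR adjusted p = 0.0371). DESeq2 called *Fpgs* in both comparisons and *Slc19a1* in Th17. Without Naive replicate 1, the library with 1226 CPM of erythroid genes, the log2 fold changes of *Fpgs* were -0.90 in Th17 and -1.12 in Th1 and that of *Slc19a1* in Th17 was -0.81. None of these was called, and the part of the erythroid genes was not tested. *Fpgs*, *Mtr* and *Slc19a1* were named after their values were seen.

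In the other lists the calls by edgeR were single genes. *Myc*, a transcription factor of growth, had 272 and 529 CPM in Th1, 173 and 137 CPM in Naive, but 84.2 and 74.7 CPM in Th17, and exceeded its Th17 level in Th1, with a log2 fold change of 2.33 (SE 0.35, edgeR adjusted p = 0.00274). *Sdsl*, a serine dehydratase relative, had 38.1 and 6.39 CPM in Naive, 0.597 and 1.02 CPM in Th17 and 0.155 and 0.190 CPM in Th1, and was called lower in both Th cell types relative to Naive, by log2 fold changes of -4.85 and -7.06. Its higher Naive value was in replicate 1, which also had the greater depth and the higher erythroid sum, 1226 against 186 CPM. All 18 proliferation genes were higher in that library too, and the part of each was not tested. Without Naive replicate 1 the fold changes were -3.02 in Th17, no longer called (edgeR adjusted p = 0.0193), and -5.24 in Th1, and the call in Th17 was also lost without either Th17 replicate. *Atf3*, a stress-induced factor, had 4 and 1 counts in Naive, but 211 and 176 in Th17 cells and 215 and 28 in Th1 cells, and was called higher in both. *Sdsl* and *Atf3* had 3 counts or fewer in a library and were named after their values were seen. edgeR called none of the 9 other folate enzymes, 3 glycine cleavage, 8 serine transport and 13 purine synthesis genes tested. At an unadjusted p under 0.05, these lists counted 0, 0, 1 and 3 genes in Th17 relative to Naive, 2, 1, 4 and 2 in Th1 relative to Naive, and 5, 2, 3 and 1 in Th1 relative to Th17. All genes tested had shares of 33.3%, 29.9% and 33.8% at that level. DESeq2 called none of the genes in these lists in Th17 relative to Naive, and 1 purine synthesis gene in Th1 relative to Naive. In Th1 relative to Th17 it called 1 serine transport and 1 purine synthesis gene. Of the serine use genes, DESeq2 also called *Serinc1* in Th17 and *Serinc3* in Th1 relative to Naive, with log2 fold changes of 1.08 and 1.05. It called *Myc* higher in Th1 relative to Naive as well, at 1.39. The *Serinc* genes were named after their values were seen. Of all 13607 genes it called 1717, 1917 and 1797.

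**Figure D5:**
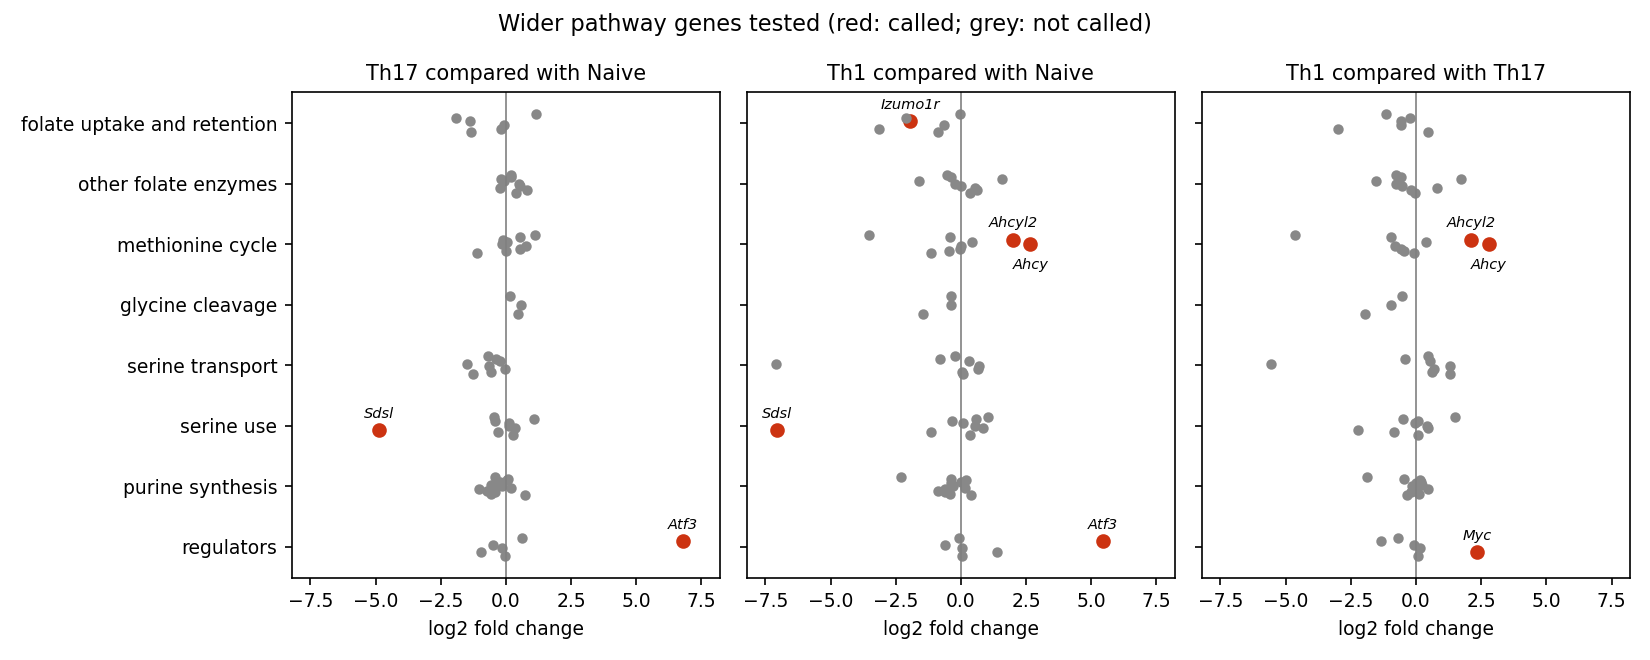
Log2 fold changes of the 63 wider pathway genes tested, by list and comparison (red, named: called by edgeR; grey: not called). The grey points furthest left, *Slc7a10*, *Cth* and *Slc46a1*, had 0 counts in at least 1 library. The calls relative to Naive were *Sdsl* and *Atf3* in Th17 and these with *Ahcy*, *Ahcyl2* and *Izumo1r* in Th1, and the calls between Th1 and Th17 were *Ahcy*, *Ahcyl2* and *Myc*.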

How the data were processed

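RNA-Seq counts were analysed for 2 Naive, 2 Th17 and 2 Th1 mouse libraries. RNA was copied with poly(T) primers by Smart-seq2 before library construction. The authors mapped reads to mm10 with HISAT2 2.2.1 and counted them per gene with HTSeq 0.13.5, per the labels, and the deposited values are raw counts. StringTie 2.1.7 and DESeq2 1.34.0 are also listed in the submitters' processing notes. The methods describe duplicate removal and default HTSeq settings, while the supplementary code has a reverse-strand option and no duplicate removal. The gene annotation is not given in the sources used here.

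Counts were fitted here in R 4.3.3 with edgeR 4.0.16 (TMM, filterByExpr by cell type, quasi-likelihood F-test) in 1 model of the 6 libraries whose sole term was cell type, and Benjamini-Hochberg adjustment over 13607 genes. Standard errors were taken from the fold change and the F statistic. DESeq2 1.42.0, other normalizations and filters, a replicate block, thinning, a looser threshold and leaving out each library were the alternatives. In the last, the lone library of a cell type was assumed to vary like the others. Replicate libraries of a cell type differed by more than sampling noise. The study calls them independent, but the labels do not say whether they share animals. Intervals of ratios are exact binomial and cover counting error only, and 3 counts were taken as the limit of detection.

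Coordinates and lengths are from GENCODE vM21 (GRCm38), promoters from RefSeq. The enzymes and gene lists were chosen with earlier results of these data known. Pathway genes were named when called with more than 3 counts in every library. Some marker genes are not reported here.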

Additional observations from a re-analysis of the deposited data

Results flagged for a closer look

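Among the wider pathway genes, *Ahcy*, *Ahcyl2* and *Myc* differed between the polarized cell types in a test of that difference. Their log2 fold changes in Th1 relative to Th17 were 2.80, 2.11 and 2.33, with both Th1 libraries above both Th17 libraries for each gene. Relative to Naive, they were 2.66, 1.99 and 1.37 in Th1 and -0.14, -0.11 and -0.97 in Th17. With each library left out in turn, these changes ran from 2.65 to 2.97 for *Ahcy*, from 1.46 to 2.56 for *Ahcyl2* and from 1.79 to 2.73 for *Myc*. In fits that left Th17 with 1 library, assumed to vary like the others, none of the 3 was called, and without Th1 replicate 2, which gave the lowest values of *Ahcyl2* and *Myc*, *Ahcy* alone of the 3 was called. None of the 8 enzymes was called in this comparison, and groups of 2 libraries are too small for a test of single outlying samples.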

How the results depend on the processing

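*Mthfd1* was the only enzyme called under any alternative. In Th17 relative to Naive it made the count 1 in place of 0 with DESeq2, without a filter on low counts, with the replicate block (-1.499) and at an adjusted p under 0.05, and in Th1 relative to Naive 1 without the filter (-1.24). With each library left out, the count ranged from 0 to 1 in Th17 relative to Naive. The block gave no other call among the enzymes. Same-numbered libraries correlated at -0.23, 0.17 and 0.08 in their deviations, not over 0.1 in every pair. The labels do not pair them either, so the samples were not treated as paired. Whether they share a source is not given, and such a correlation cannot settle it. Over all genes the block moved the calls from 739, 1014 and 752 to 1035, 1402 and 1041. DESeq2 called 1717, 1917 and 1797 of all genes, and an adjusted p under 0.05 gave 2063, 2164 and 2112. Pathway calls, 2, 5 and 3 here, were 7, 10 and 6 with DESeq2, 3, 7 and 3 with the replicate block, and 7, 12 and 8 at an adjusted p under 0.05. With each library left out, chosen after seeing the data as were the other settings for single pathway genes, they ranged from 1 to 3, 2 to 5 and 0 to 5.

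Library size alone moved the median of all genes by -0.25 in Th1 relative to Naive and by -0.21 relative to Th17. It reversed *Shmt1* in Th17 (-0.000199), and *Psat1* (-0.0749) and *Psph* (-0.21) in Th1, each relative to Naive and none called. At least 10 counts in every library gave -0.00193 for *Psph* in Th1, and thinning -0.0241 for *Shmt1* in Th17. When libraries were left out in turn, each of these log2 fold changes took both signs. In Th17 relative to Naive they ranged from -0.14 to 0.79 for *Psat1*, -0.25 to 0.35 for *Shmt1*, -0.60 to 0.53 for *Ahcy* and -0.35 to 0.15 for *Ahcyl2*. In Th1 relative to Naive they ranged from -0.67 to 0.67 for *Psat1*, -0.18 to 0.28 for *Psph*, -1.19 to 0.45 for *Shmt1*, -0.44 to 0.13 for *Shmt2* and -0.59 to 0.17 for *Mthfd1l*. In Th1 relative to Th17 they ranged from -0.25 to 0.58 for *Phgdh*, -0.98 to 0.42 for *Psat1*, -1.26 to 0.43 for *Shmt1* and -0.11 to 0.79 for *Mthfd1*. The log2 ratio of *Shmt2* to *Shmt1* in Th1 relative to Naive ranged from -0.33 to 0.74. The cause was not tested. With the longest transcript as length, *Phgdh* stayed highest at 60.8 CPM per kb and *Shmt1* lowest at 7.26.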
